A study of Mus musculus with 12 samples.

Results

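The 40 genes described here are a fixed set of cell cycle and DNA replication genes: cyclins and their kinases, E2F factors, the proteins that license and copy DNA, enzymes of nucleotide supply, mitotic kinases, and proteins of the spindle and kinetochore. They were chosen by symbol in the deposited annotation, and all 40 were found among the 20670 genes named on the arrays. Each was read from its probe set with the highest mean intensity, and Zwint was also read in each of its probe sets. All 40 passed the filter on dim genes and are among the 12402 genes tested. The probe sets of 3 of them, Ccnb1, E2f2 and Tyms, were dim, with mean intensities of 8.16, 11.0 and 11.8, so their values carry little weight.

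RNA was hybridised to 12 Affymetrix arrays, 1 per sample, from 2 mouse lines: 3T3-L1, a preadipocyte line committed to the fat lineage, and 10T1/2, mesenchymal stem cells with a wider range of fates. Cells of every group were transfected with siRNA on day -5 and again on day 0. Those of 10T1/2 carried si-Setdb1 or si-Ctr (the negative control siRNA) and were taken after 48 hr in medium for differentiation that held the synthetic glucocorticoid dexamethasone at 0.25 µM, or at 0 hr, before it, with 1 array for each of these 4 groups. Those of 3T3-L1 carried si-Setdb1 or si-Ctr and were taken after 36 hr in that medium, with 1 array per group, or at 0 hr, with 2 arrays per group from experiments labelled ExA and ExB. A further array each holds 3T3-L1 cells of ExB with si-Mbd1 or si-Mcaf1. These are taken as 0 hr from their titles, although a further label gives 36 hr. Setdb1 is a histone H3K9 methyltransferase, Mbd1 binds methylated DNA, and Mcaf1 (Atf7ip) is a partner of both. Beyond the experiment letters nothing in the labels ties arrays to separate cultures, so the p-values cover array-to-array spread that may be technical.

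A dividing cell runs these genes in waves. D-type cyclins start the passage out of G1, and cyclin E with Cdk2 releases the E2F factors, which switch on the genes for origin licensing, the MCM helicase, the sliding clamp Pcna and nucleotide synthesis. Later, cyclins A and B with Cdk1, the Aurora and Polo kinases and the kinetochore proteins carry the cell through mitosis, and many of their genes are held down outside the cycle by the DREAM complex. Preadipocytes given an adipogenic cocktail are known to pass through a round of division, mitotic clonal expansion, before they become fat cells, whereas growth arrest goes with low levels of nearly all these transcripts.

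Across arrays, the check of the targeted genes did not bear out every label. The brightest Setdb1 probe set read 149.9, 143.0, 154.7, 157.8 and 209.0 on the arrays labelled si-Setdb1, against 124.8, 144.8, 179.8, 124.3 and 120.5 on their si-Ctr partners, and so was lower in 2 of the 5 pairs. A dim Setdb1 probe set was lower in 5 of 5, at 1.6, 9.9, 0.4, 0.6 and 0.4, against 4.2, 24.4, 6.5, 2.8 and 1.6. Another dim one was higher in 5 of 5, at 15.4, 22.0, 22.1, 7.3 and 14.0, against 6.0, 11.7, 7.0, 6.8 and 7.2. Atf7ip was higher with si-Setdb1 in 5 of 5 pairs (3.16-fold, limma adjusted p = 0.020). In ExB, Mbd1 was at 144.0 with its own siRNA, against 306.2 with si-Ctr, and Atf7ip was at 154.5 where the label is si-Mcaf1, against 159.6. The 4 arrays of ExB stood apart from the other 8 in RNA controls, with Gapdh 3'/5' ratios of 0.691 to 0.747 against 0.859 to 0.933. All 9 fibroblast and preadipocyte markers were measured, and their summed intensity was 32228 to 48051 on every array, whereas those of leukocyte, endothelial, epithelial and muscle markers lay between 16.7 and 89.2. Dlk1, a preadipocyte marker, was 43.3 and 98.4 in 10T1/2 at 0 hr, against 3383 to 7602 in the 4 3T3-L1 arrays. In bulk RNA, fewer dividing cells and less of these transcripts per cell cannot be told apart.

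**Figure D1:**
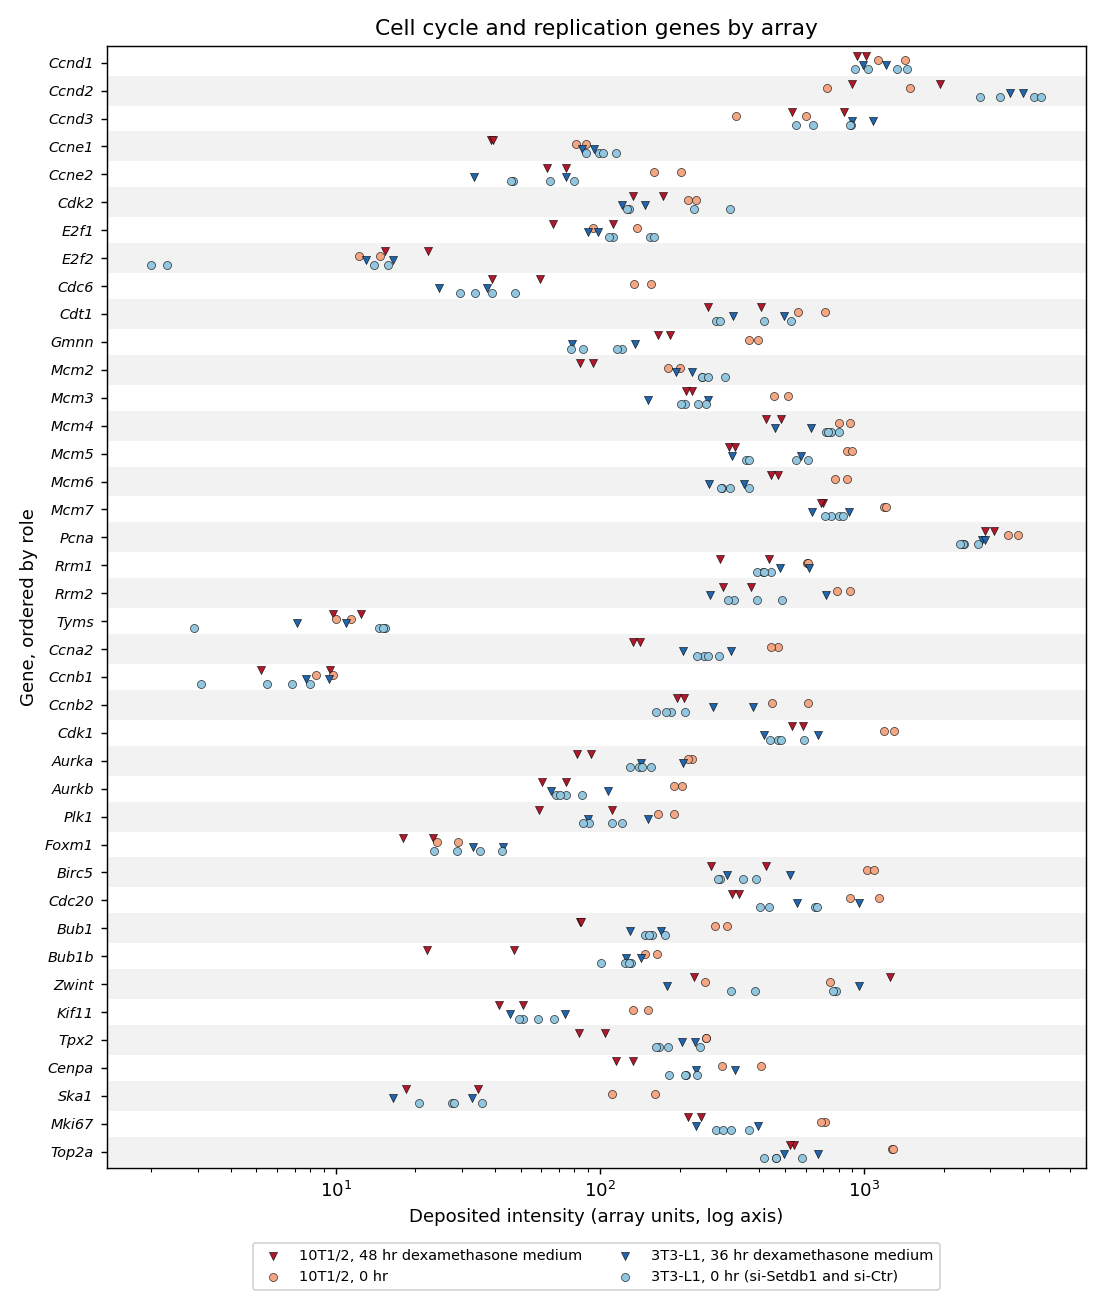
Deposited intensity (log axis) of the 40 genes on 10 arrays, 1 row per gene ordered by role. Symbols separate 10T1/2 after 48 hr, 10T1/2 at 0 hr, 3T3-L1 after 36 hr and 3T3-L1 at 0 hr. For 29 of the 40 genes both 10T1/2 arrays at 0 hr lie above all 4 3T3-L1 arrays at 0 hr.

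The first comparison asked how the lines differed before dexamethasone. Arrays with si-Setdb1 and with si-Ctr were pooled in each line, with the siRNA included in the fit. The means and SDs of a line therefore span both siRNAs, and in 3T3-L1 also ExA and ExB. In 10T1/2 most of the cell cycle program stood higher than in 3T3-L1, from origin licensing through mitosis. Of the 40 genes, 18 were higher in 10T1/2 and 2 were lower (limma, Benjamini-Hochberg adjusted p under 0.05), where 9.12% of all genes tested were higher and 8.56% lower. The median log2 difference of the 40 was 0.86, against 0.04 over all genes. For 29 of them both 10T1/2 arrays lay above all 4 3T3-L1 arrays, a pattern that 25.7% of all genes showed, and for 2 both lay below, which 21.0% of all genes showed.

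The D-type cyclins of G1 did not share this direction. Ccnd2, a D-type cyclin that partners Cdk4 and Cdk6, read 1490 (si-Setdb1) and 724 (si-Ctr) in 10T1/2, against 4665 and 3277 (si-Setdb1) and 4373 and 2744 (si-Ctr) in 3T3-L1. The lines did not overlap, and the fitted level was 3.82-fold lower in 10T1/2 (log2 difference -1.93 ± 0.30 SE, limma adjusted p = 0.014). All 7 Ccnd2 probe sets gave a lower level in 10T1/2, with log2 differences of -1.93 to -3.45. Ccnd3 was also lower in 10T1/2 (-0.75 ± 0.17, adjusted p = 0.038), with arrays that overlapped between the lines. Ccnd1 did not pass the test (0.03 ± 0.22, adjusted p = 0.94), nor did Ccne1, Cdk2, E2f1 or the dim E2f2. Ccne2, an E-type cyclin of S-phase entry, was the 1 gene of these 8 that was higher in 10T1/2, at 202.5 and 160.4, against 46.0 to 79.8 in 3T3-L1 (1.71 ± 0.26, adjusted p = 0.013).

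Of the 10 licensing and fork genes, 4 were higher in 10T1/2 and none was lower. Mcm6, a subunit of the replicative helicase, read 773.7 and 861.4 in 10T1/2, against 288.0 to 364.8 in 3T3-L1. Its lines stood far apart, with a 2.57-fold difference and the smallest adjusted p of the set (1.36 ± 0.15, adjusted p = 0.0051). Cdc6, which loads the helicase onto origins, averaged 146 ± 15 in 10T1/2 and 37.4 ± 7.8 in 3T3-L1 (SD, n = 2 and 4), a log2 difference of 2.08 ± 0.31. Gmnn, which encodes geminin and keeps origins from being licensed again, averaged 382 ± 20 in 10T1/2 and 100.1 ± 21.5 in 3T3-L1, a log2 difference of 2.00 ± 0.29. Mcm3 was the fourth (1.11 ± 0.17). Mcm7 and Mcm5 lay above all 3T3-L1 arrays in both 10T1/2 arrays but missed the threshold (adjusted p = 0.052 and 0.076). Mcm2 went the other way, at 181.4 and 201.5 in 10T1/2, against 243.4 to 297.4 in 3T3-L1 (-0.43 ± 0.16, adjusted p = 0.13), but its other bright probe set gave a difference of 0.23.

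Of the 3 genes of nucleotide supply, Rrm2, the S-phase subunit of ribonucleotide reductase, was higher in 10T1/2, at 790.3 and 880.6, against 305.5 to 489.7 in 3T3-L1 (1.15 ± 0.24, adjusted p = 0.029). Its partner Rrm1, the large subunit, had a difference of 0.52 ± 0.14 (adjusted p = 0.062), but its other bright probe set gave -0.51.

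Of the 10 mitotic regulators, 7 were higher in 10T1/2 and none was lower. Cdk1, the kinase that drives entry into mitosis, read 1190 and 1297 in 10T1/2, against 437.9 to 592.0 in 3T3-L1, and was 2.43-fold higher (1.28 ± 0.17, adjusted p = 0.0089). Its partner Ccnb2 read 447.2 and 613.7, against 163.1 to 209.2 (1.53 ± 0.20, adjusted p = 0.0093). Birc5 (survivin) and Aurkb, both of the chromosomal passenger complex, were higher by 1.67 ± 0.19 and 1.47 ± 0.19, and Plk1, Ccna2 and Aurka by 0.87, 0.84 and 0.65. Cdc20, which activates the anaphase-promoting complex, missed the threshold (0.88 ± 0.27, adjusted p = 0.078), and Foxm1, a transcription factor of G2 genes, had a difference of -0.05 ± 0.19.

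Among the 7 spindle and kinetochore genes, Ska1, a microtubule-binding protein of the outer kinetochore, read 110.6 and 161.6 in 10T1/2, against 20.7 to 35.9 in 3T3-L1. It was 5.29-fold higher in 10T1/2 (2.40 ± 0.32, adjusted p = 0.0094), and its 2 dimmer probe sets gave 1.34 and 1.51. Kif11, the motor that pushes spindle poles apart, and the checkpoint kinase Bub1 were also higher, by 1.44 ± 0.25 and 0.89 ± 0.17. The proliferation marker Mki67 averaged 697 ± 16 in 10T1/2 and 311 ± 39 in 3T3-L1, and Top2a, the topoisomerase that untangles sister chromosomes, 1276 ± 12 and 482 ± 69 (SD, n = 2 and 4). Both passed the test (1.15 ± 0.17 and 1.35 ± 0.17).

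**Figure D2:**
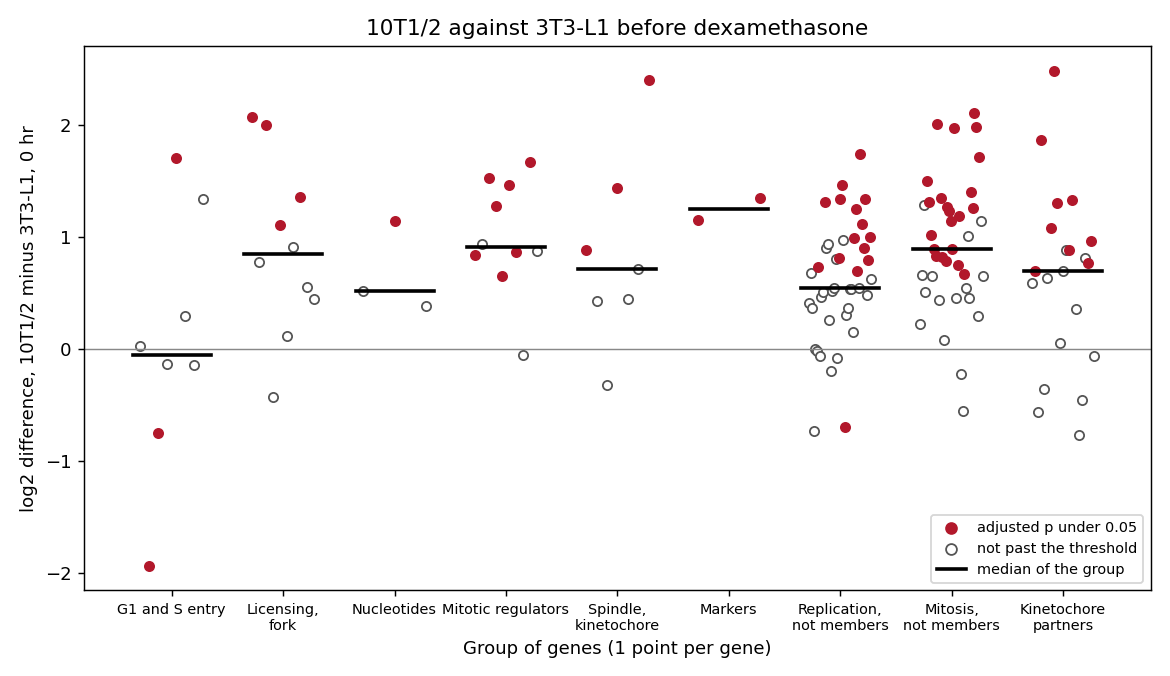
Log2 difference between 10T1/2 and 3T3-L1 at 0 hr for each gene, grouped by role for the 40 genes (6 columns on the left) and by list for related genes (3 on the right). Filled points have an adjusted p under 0.05 and black lines are group medians, which are above 0 in every column but that of G1 and S entry.

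Lists of related genes outside the 40 were read the same way. Of 38 other mitosis genes tested, 22 were higher in 10T1/2 and none was lower, with a median of 0.90. Pbk, a mitotic kinase, averaged 786 in 10T1/2 and 183 in 3T3-L1 (2.11 ± 0.23, adjusted p = 0.0054), and Pttg1, securin, averaged 1860 and 467 (1.98 ± 0.28). Of 41 other replication genes, 14 were higher and 1, Rfc1, was lower (median 0.55), with Tk1, thymidine kinase, at 1.75 ± 0.22. Of 21 kinetochore partners, 9 were higher and none was lower (median 0.70), led by Spc24 of the Ndc80 complex (2.49 ± 0.33). Of 20 CDK inhibitors and RB family genes, 6 were higher, among them the S-phase repressor E2f8 (2.05 ± 0.34), and 2 were lower.

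These last 2 were genes of the Ink4 locus, which encodes inhibitors of Cdk4 and Cdk6. Cdkn2a read 31.0 and 33.7 in 10T1/2 at 0 hr, against 2052 to 2465 in 3T3-L1, and Cdkn2b read 37.3 and 39.4, against 745.1 to 959.7. The lines did not come near each other, with log2 differences of -6.03 ± 0.14 and -4.34 ± 0.15 (adjusted p = 2.8e-04 and 3.8e-04). On the 10T1/2 arrays at 48 hr both stayed low, at 53.3 and 57.1 for Cdkn2a and 46.6 and 49.6 for Cdkn2b.

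The 10T1/2 arrays carry no experiment letter, so line and experiment cannot be told apart. Against the 3T3-L1 arrays of ExA alone, 7 of the 40 were called, all higher (median 0.62), among 873 of all genes. Against those of ExB alone 20 were called, 19 of them higher, among 2137 of all genes, 1203 of them higher. Leaving out either 10T1/2 array left 1 call, Ccne2 without si-Ctr and Ccnd2 without si-Setdb1, with medians of 0.76 and 0.95 and with 448 and 502 calls over all genes. Among 32 other bright probe sets of 19 of these genes, 26 gave a line difference of the same sign as the probe set read.

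Since many of these genes moved together, their promoters were searched for words known from cell cycle genes. Windows of 300 bases (250 before and 50 after the start, RefSeq on GRCm38.p6) were at hand for 30 of the 40 genes, 33 windows in all. The E2F-type words searched on either strand were TTCCCGC, then TTGGCGC with its relative TTCGCGC, and lastly the word TTGCCGC, and matches may overlap. They were in 14 of 33 windows (42.4%), against 9.57% of all 32851 windows. Such words were in 7 of 9 windows of licensing and fork genes and in 0 of 5 of spindle and kinetochore genes. The CHR word TTTGAA, known from mitotic promoters, was in 12 of 33 (36.4%), against 17.9% of all windows, with 5 of 7 windows of mitotic regulators and 1 of 9 of licensing genes. CCAAT was in 26 of 33 (78.8%), against 37.4%. A match is a run of letters and does not show that a factor binds.

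The promoters of 3 genes that differed between the lines show these arrangements, with matches to the words (on either strand) in capitals. The Mcm6 window (chr1:128359656-128359955, minus strand) holds 5 E2F-type matches, with 2 overlaps among them, 2 CCAAT matches and no CHR match. The Cdk1 window (chr10:69352863-69353162, minus strand) holds all 3 kinds, with 2 E2F-type, 2 CHR and 3 CCAAT matches. That of Ccnb2 (chr9:70421505-70421804, minus strand) holds 2 CHR and 3 CCAAT matches and no E2F-type one.
Mcm6: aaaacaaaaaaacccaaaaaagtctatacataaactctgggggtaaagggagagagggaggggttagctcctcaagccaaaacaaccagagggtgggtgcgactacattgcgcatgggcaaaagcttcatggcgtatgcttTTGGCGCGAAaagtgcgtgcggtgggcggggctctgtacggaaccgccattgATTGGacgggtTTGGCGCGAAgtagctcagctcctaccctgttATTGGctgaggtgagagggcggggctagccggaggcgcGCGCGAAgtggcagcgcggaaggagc
Cdk1: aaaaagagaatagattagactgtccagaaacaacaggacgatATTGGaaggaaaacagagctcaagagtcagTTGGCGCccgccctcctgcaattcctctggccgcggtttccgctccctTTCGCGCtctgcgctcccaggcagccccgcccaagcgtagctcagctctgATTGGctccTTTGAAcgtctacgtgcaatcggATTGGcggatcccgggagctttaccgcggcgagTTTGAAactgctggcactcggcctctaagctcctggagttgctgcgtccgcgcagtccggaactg
Ccnb2: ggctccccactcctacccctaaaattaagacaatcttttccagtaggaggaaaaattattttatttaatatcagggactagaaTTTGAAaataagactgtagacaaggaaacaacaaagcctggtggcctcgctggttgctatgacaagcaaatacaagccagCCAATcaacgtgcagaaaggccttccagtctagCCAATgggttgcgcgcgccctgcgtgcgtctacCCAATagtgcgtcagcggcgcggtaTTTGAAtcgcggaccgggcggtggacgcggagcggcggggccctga

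The second comparison asked how the genes differed after dexamethasone medium. In 10T1/2 nearly the whole set was lower at 48 hr than at 0 hr, with either siRNA. In 3T3-L1 at 36 hr most genes lay within 1.5-fold of their 0 hr level. Of the 40 genes, 30 were lower by more than 1.5-fold in the 10T1/2 si-Setdb1 pair and 30 in the si-Ctr pair, where 12.4% and 9.33% of all genes were. In 3T3-L1, 3 were lower by that much in the si-Setdb1 pair and 5 in the si-Ctr pair, against 10.2% and 10.9% of all genes. The median log2 differences were -1.04 and -1.13 in 10T1/2 and 0.20 and -0.18 in 3T3-L1 (si-Setdb1 and si-Ctr pairs in turn), while those of all genes lay between -0.03 and 0.01. Past 1.5-fold higher were 1 and 2 genes in 10T1/2 (12.1% and 8.94% of all genes) and 3 and 3 in 3T3-L1 (9.18% and 9.57%). The roles differed in the 3T3-L1 si-Ctr pair, where licensing and fork genes had a median of -0.40, with 1 of 10 above 0. The median of mitotic regulators was 0.06, with 6 of 10 above 0. That of the 41 other replication genes was -0.29, with 7 above 0. In the 3T3-L1 si-Setdb1 pair these medians were -0.02, 0.38 and 0.01.

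A total of 27 genes were past 1.5-fold lower in both 10T1/2 pairs (4.58% of all genes) and 0 in both 3T3-L1 pairs (4.31%). These 27 include 9 of the 10 licensing and fork genes, Pcna being the exception, and, among mitotic regulators, Ccna2, Ccnb2, Cdk1, Aurka, Aurkb, Birc5 and Cdc20. For 34 of the 40 both 10T1/2 pairs lay below both 3T3-L1 pairs, against 20.8% of all genes, and for Ccnd2 and the dim Tyms both lay above (20.5%). Lower in 4 of 4 pairs, and so in both lines, were 9 of the 40, as 15.4% of all genes were. They were Ccnd1, Ccne1, Cdc6, Cdt1, Mcm2, Mcm4, Mcm5, E2f1 and Bub1.

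Genes of the mitotic checkpoint and of S phase and G2 show the contrast between the lines. Bub1 read 84.5 (si-Setdb1) and 83.9 (si-Ctr) after 48 hr, against 273.2 and 303.5 at 0 hr. In 3T3-L1 it read 170.0 and 129.4 after 36 hr, against 176.5 and 148.2 at 0 hr in ExA. Ccna2, cyclin A2 of S phase and G2, read 141.6 and 133.4 in 10T1/2 after 48 hr, against 442.4 and 470.6. For both genes the 48 hr and 0 hr arrays of 10T1/2 did not overlap.

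Mki67 read 241.3 and 215.9 in 10T1/2 after 48 hr, against 686.1 and 708.8 at 0 hr, and 396.5 and 231.4 in 3T3-L1 after 36 hr, against 365.5 and 311.8. Ska1 read 34.6 and 18.4 in 10T1/2, against 110.6 and 161.6, log2 differences of -1.56 and -2.91. Bub1b, the checkpoint protein BubR1, read 22.2 and 47.4, against 147.8 and 163.7. Among helicase genes, Mcm5 read 323.2 and 308.4, against 901.3 and 860.6, and Mcm6 445.4 and 469.5, against 773.7 and 861.4. Pcna, the clamp that holds polymerases on DNA, read 2852 and 3084, against 3811 and 3495, and was the licensing and fork gene that was not past 1.5-fold in either pair.

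Some genes went the other way. Ccnd3 was higher after dexamethasone medium in 4 of 4 pairs, by 0.46 and 0.70 in 10T1/2 and 0.25 and 0.68 in 3T3-L1, and the dim E2f2 was the other gene higher in 4 of 4 (16.3% of all genes were). Ccnd2 was higher in both 10T1/2 pairs, by 0.29 and 0.28, and lower in both 3T3-L1 pairs, by 0.19 and 0.47.

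**Figure D3:**
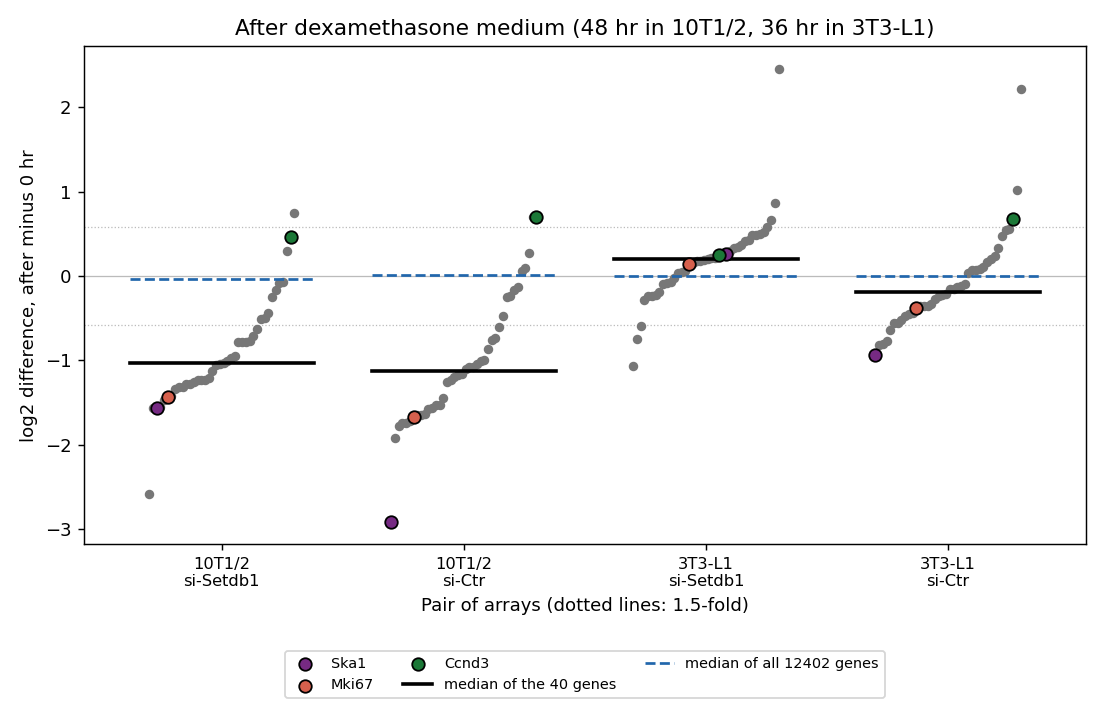
Log2 difference after dexamethasone medium minus 0 hr for the 40 genes in 4 pairs of arrays, each column sorted. Solid black lines are the medians of the 40 genes, dashed lines those of all genes tested, and dotted lines mark 1.5-fold. The medians of the 40 are -1.04 and -1.13 in 10T1/2 and 0.20 and -0.18 in 3T3-L1.

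With 4 pairs pooled, none of the 40 passed the limma test (adjusted p of 0.12 or more), where 0.766% of all genes did (0.5% higher and 0.266% lower). At an unadjusted p under 0.05, 2 were higher and 9 lower, where 10.4% and 10.5% of all genes were. The median was -0.54, against -0.01 over all genes. The difference between the lines' responses was then tested itself. In this interaction no gene of the table passed (0.0%), with a smallest adjusted p of 0.24 among the 40. At an unadjusted p under 0.05, 28 of the 40 were lower in 10T1/2 and 1 higher, where 4.98% of all genes were in each direction, 9.97% in all. The median difference between responses was -1.11, against 0.00 over all genes. Bub1b (-2.23 ± 0.37) and Ccnb2 (-2.04 ± 0.25) each had an adjusted p above 0.05. Another bright probe set of Bub1b gave a smaller gap, with mean responses of -1.34 in 10T1/2 and 0.03 in 3T3-L1. A stricter filter on dim genes kept 34 of the 40 and 8268 of all genes. With it 9 of the 34 passed, among 69 of all genes, all 9 lower in 10T1/2 (Aurka, Aurkb, Bub1, Bub1b, Ccna2, Ccnb2, Cenpa, Top2a and Tpx2), and with a trended prior 8 of these did, among 70 of all 12402 genes.

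The lists of related genes gave these counts. Of 38 other mitosis genes, 36 were past 1.5-fold lower in each 10T1/2 pair, against 0 (si-Setdb1) and 5 (si-Ctr) in 3T3-L1. Of 41 other replication genes, 31 and 29 were in 10T1/2 and 2 and 6 in 3T3-L1, and of 21 kinetochore partners 13 and 14, and 1 and 1. Of 20 CDK inhibitors and RB family genes 5 and 6 were, and 1 and 3. Over all genes tested, 12.4% and 9.33% were past 1.5-fold lower in 10T1/2, and 10.2% and 10.9% in 3T3-L1.

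After the medium the order of the lines was mixed. Both 10T1/2 arrays at 48 hr lay below both 3T3-L1 arrays at 36 hr for 14 of the 40 (27.7% of all genes), among them Ccna2, Ccnb2, Bub1, Aurka and Cdc20. For 3, Cdc6, Gmnn and Mcm6, both lay above (26.4%). This 10T1/2 response and the line difference at 0 hr share the same 10T1/2 arrays at 0 hr. The summed intensity of 5 fat cell markers was 16873 (si-Setdb1) and 2672 (si-Ctr) in 10T1/2 after 48 hr, against 1259 and 483.7 at 0 hr. In 3T3-L1 it was 16393 and 4216 after 36 hr, against 8405 and 2745 at 0 hr in ExA. Its part in these results was not tested. Line and duration of treatment cannot be told apart, and each pair has 1 array a side.

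The third comparison set the 5 arrays labelled si-Setdb1 against their si-Ctr partners. Few of the 40 genes differed: 1, Zwint, was lower (limma adjusted p under 0.05), where 0.661% of all genes were lower and 0.452% higher, and the median was 0.11. At an unadjusted p under 0.05, 4 were higher and 1 lower, where 10.3% and 11.9% of all genes were. Ccnd3 came nearest on the higher side. It read 887.8, 881.2, 1084, 599.3 and 835.7 on the arrays labelled si-Setdb1, against 550.6, 639.3, 897.1, 325.6 and 533.5 on si-Ctr, in the order 3T3-L1 at 0 hr in ExA and ExB, 3T3-L1 at 36 hr, 10T1/2 at 0 hr and 10T1/2 at 48 hr. It was higher in 5 of 5 pairs without passing the test (0.58 ± 0.11, adjusted p = 0.068). Cdt1, the licensing factor that loads MCM helicase, and Mcm5 were also higher in 5 of 5, as 11.0% of all genes were, by 0.41 ± 0.11 and 0.24 ± 0.14.

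The pair of 3T3-L1 at 36 hr had the highest count of the 5. In it 15 of the 40 genes were past 1.5-fold higher in the array labelled si-Setdb1 (11.1% of all genes) and 2 lower (10.6%), and 35 lay above 0, with a median of 0.44. Rrm2 read 715.5 with si-Setdb1, against 261.5 with si-Ctr, Birc5 524.8 against 302.1, Mki67 396.5 against 231.4, and Cdk1 665.3 against 416.4. In 3T3-L1 at 0 hr, 2 genes were past 1.5-fold higher and 2 lower in ExA (7.19% and 7.97% of all genes), and 0 and 4 in ExB (9.23% and 9.38%). In 10T1/2, 2 and 1 were at 0 hr (8.09% and 8.43%), and 6 and 4 at 48 hr (11.5% and 12.1%). The result for 3T3-L1 at 36 hr rests on 1 array a side and has no replicate check. Its arrays also serve as the 36 hr arrays of the 3T3-L1 pairs in the second comparison. The results of these pairs are therefore not independent of each other. The test of whether the siRNA difference changed after dexamethasone called 0 genes of the table (0.0%). At an unadjusted p under 0.05 it gave 5 of the 40 higher and 2 lower, where 4.02% and 3.14% of all genes were, 7.16% in all. Its median over the 40 was 0.30, or 0.068 without the 36 hr pair. The test between the lines also called 0 genes (0.0%), with a median of -0.21. At an unadjusted p under 0.05, 1 of the 40 was higher and 3 were lower in it, where 4.19% and 4.16% of all genes were, 8.35% in all.

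Fat cell markers were higher on the arrays labelled si-Setdb1 too. The summed intensity of the 5 measured was 1259 to 16873 with si-Setdb1, against 483.7 to 4216 with si-Ctr, and in the 36 hr pair of 3T3-L1 Fabp4, a fatty acid carrier, read 7876 against 1053. None of the 5 was at 0. Its part in these results was not tested.

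**Figure D4:**
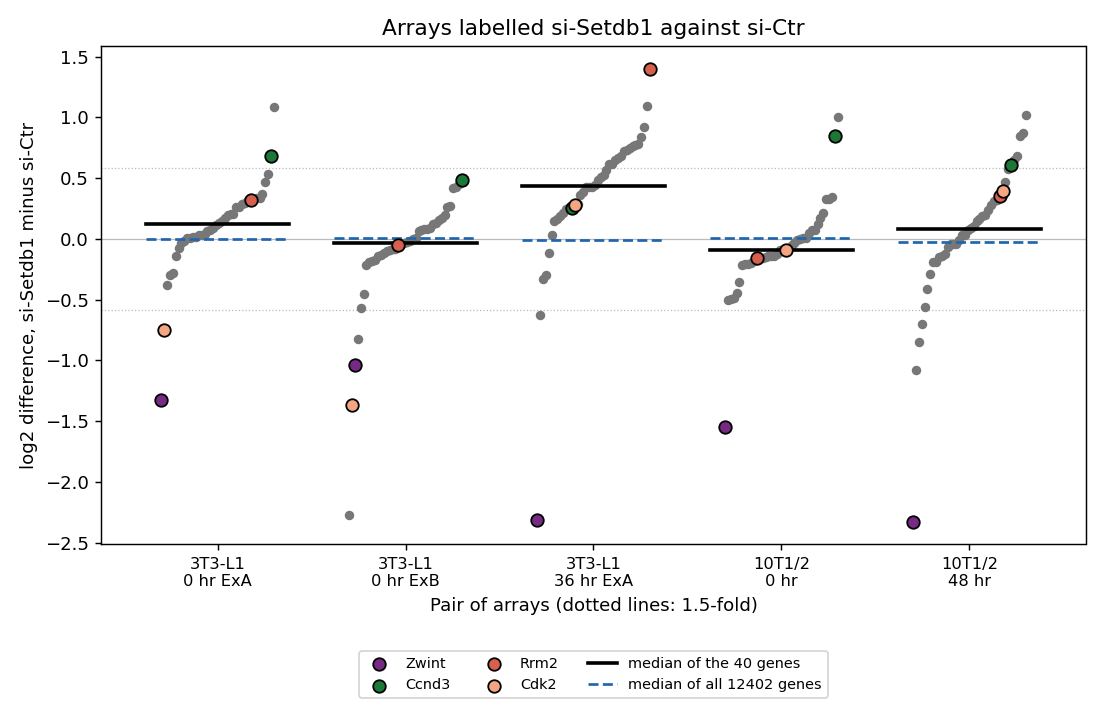
Log2 difference, si-Setdb1 minus si-Ctr, for the 40 genes in 5 pairs of arrays, each column sorted. Solid lines are medians of the 40 genes and dashed lines those of all genes. Zwint lies at -1.04 to -2.33 in every column, and the column of 3T3-L1 at 36 hr has the highest median, 0.44.

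Zwint encodes a kinetochore protein that binds Knl1 and recruits the Rod-Zw10-Zwilch complex for the spindle checkpoint. Its brightest probe set, 1423724_at, read 311.8, 387.0, 179.1, 248.9 and 227.1 on the arrays labelled si-Setdb1, against 779.7, 762.3, 951.2, 739.3 and 1256 on si-Ctr, in the order given above. All 5 si-Setdb1 values lay below all 5 si-Ctr values. The fitted level was 3.27-fold lower with si-Setdb1 (-1.71 ± 0.22 SE, limma adjusted p = 0.040). The Zwint call was lost without any one of the 5 pairs (-1.56 to -1.88, adjusted p = 0.085 to 0.13) and without a filter on dim genes (adjusted p = 0.17). It was the only gene of the 40 lower in 5 of 5 pairs, as 11.9% of all genes were. On the si-Mbd1 and si-Mcaf1 arrays the probe set read 728.6 and 563.3, against 762.3 on si-Ctr of ExB.

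The other probe sets of Zwint did not all agree. Probe set 1429786_a_at was also lower in 5 of 5 pairs, at 93.4, 138.1, 84.1, 81.8 and 81.9 with si-Setdb1, against 181.1, 313.9, 189.8, 191.0 and 285.4 with si-Ctr, a log2 difference of -1.21 ± 0.29 (SD, n = 5 pairs). In contrast, 1427539_a_at was higher in 4 of 5 pairs (0.40 ± 0.63), 1429787_x_at was lower in 3 of 5 (-0.09 ± 0.44) and 1427540_at lower in 3 of 5 (0.17 ± 0.47). The sixth, 1455382_at, had a mean intensity of 4.19. In exact 2-sided sign-flip permutation tests over the 5 pairs, p was 0.063 for the 2 probe sets lower in 5 of 5, the smallest that 5 pairs allow, and 0.3125 to 0.9375 for the others. With the mean of all probe sets in place of the brightest, Zwint lost its call, with a log2 difference of -0.35.

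**Figure D5:**
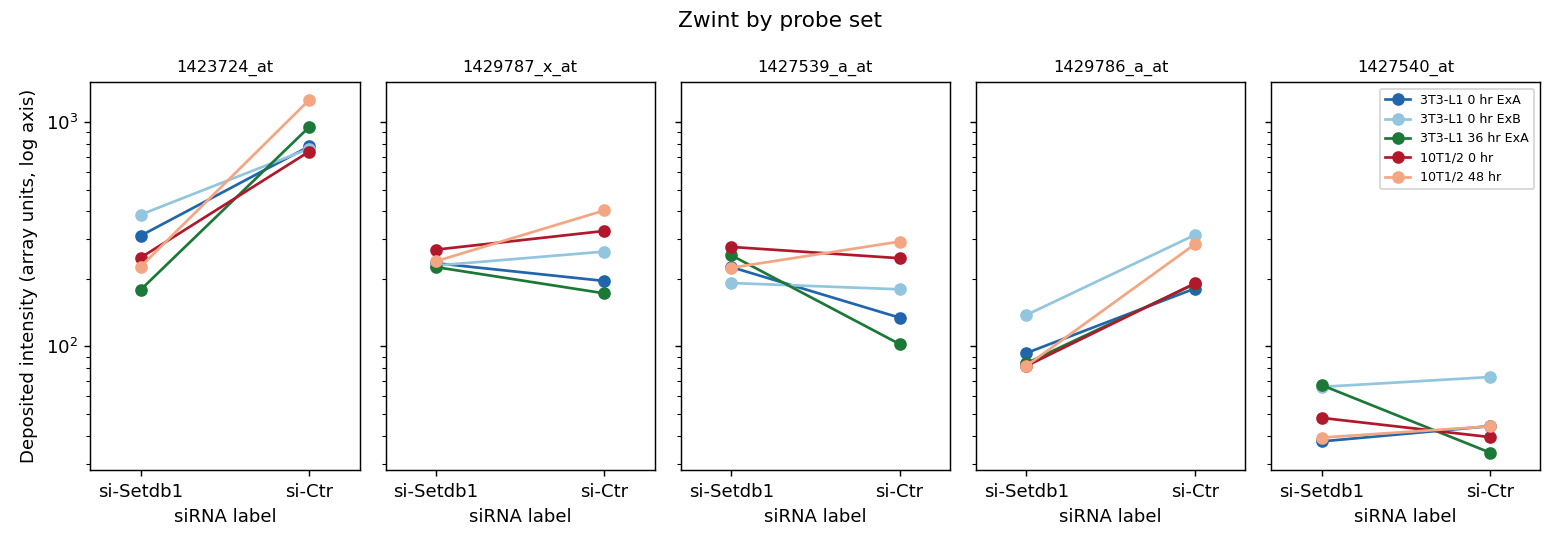
Deposited intensity (log axis) of Zwint in 5 probe sets, with si-Setdb1 on the left of each panel and si-Ctr on the right, 1 line per pair of arrays. In 1423724_at and 1429786_a_at all 5 lines run upward to si-Ctr, and in the other panels lines run both ways.

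Zwint's neighbours at the kinetochore did not pass the test in these pairs. None of the 21 kinetochore partners did, with log2 differences from -0.74 to 0.45 and a median of 0.06. At an unadjusted p under 0.05 in limma, 2 of them were higher and 0 lower, where 10.3% and 11.9% of all genes were. Knl1 was at 0.06 ± 0.15, Ndc80 at -0.01 ± 0.13, Zw10 at 0.08 ± 0.08 and Zwilch at -0.16 ± 0.20. The Zwint promoter (chr10:72654596-72654895, plus strand) is shown because it differs from the 3 above: it holds 2 CCAAT matches, in capitals, and none of the E2F-type or CHR words. This is not particular to Zwint. The windows of Bub1, Birc5, Pcna and Tyms, among others of the set, also hold neither kind of word, and that of Bub1 likewise holds 2 CCAAT matches.
Zwint: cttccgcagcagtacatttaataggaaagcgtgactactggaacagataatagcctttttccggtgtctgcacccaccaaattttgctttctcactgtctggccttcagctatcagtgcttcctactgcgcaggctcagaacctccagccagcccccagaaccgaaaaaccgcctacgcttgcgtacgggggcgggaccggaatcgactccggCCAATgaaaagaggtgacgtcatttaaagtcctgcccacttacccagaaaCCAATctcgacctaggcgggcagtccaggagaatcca

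With 2 arrays a group, 3T3-L1 at 0 hr alone, none of the 40 passed the limma test, where 0.0161% of all genes did. At an unadjusted p under 0.05, 1 of the 40 was higher and 3 were lower, where 2.85% and 2.56% of all genes were, 5.41% in all. The arrays with si-Mbd1 and labelled si-Mcaf1 have 1 sample each, and in limma fits whose spread comes from the si-Setdb1 and si-Ctr arrays of 3T3-L1 at 0 hr no gene of the table passed (0.0% for each), with 5.39% and 7.27% at an unadjusted p under 0.05. Against si-Ctr of ExB, 2 genes were past 1.5-fold higher and 2 lower with si-Mbd1 (6.43% and 4.78% of all genes), and 1 and 2 with si-Mcaf1 (8.17% and 5.81%). The dim Ccnb1 was higher by that much in both, and the dim E2f2 lower. Cdk2 was also among the lower ones in both, at 178.6 and 199.7, against 309.8 on si-Ctr. Both differences share this si-Ctr array, whose Cdk2 reading was the highest of all arrays. The si-Ctr array of ExA read 226.5. The 2 differences are therefore not independent of each other. Gmnn was among the higher ones with si-Mbd1, at 117.2 against 77.6.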

How the data were processed

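Total RNA of 12 samples was hybridised to 1-colour Affymetrix arrays. What the authors deposited is a linear intensity for each probe set, which the values show was scaled on each array to a trimmed mean of 100. The software behind it is not given in the sources used here. The authors' 11 log ratio columns were not used. Of 45101 probe sets, those with 1 symbol gave 20670 genes, each read from its brightest probe set.

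Intensities were taken as log2(intensity + 0.8) and quantile normalised, because array medians differed by up to 0.65 on the log2 scale. Genes under the 40th percentile of means (a signal of about 7.67) were left out, leaving 12402. Differences come from limma 3.58.1 in R 4.3.3 (lmFit, eBayes), adjusted by Benjamini-Hochberg over all genes tested at 0.05. With the added 0.8, folds of dim genes come out too small. Printed signals are the deposited intensities. The number of arrays limits the precision.

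The 5-pair and 4-pair fits used the pair as a block. The experiment letters tie si-Setdb1 to si-Ctr arrays: the differences between ExA and ExB in the 2 siRNA groups correlated over genes (r = 0.426). Pairs of 1 line may share an experiment and are not shown to be independent. All 40 genes, called genes of the lists, targeted genes and markers could be named, at most 6 per list. The genes and lists were chosen with earlier results of these data known. Alternatives were another scaling, pseudocount, filter, prior, probe set rule, block and set of arrays.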

Additional observations from a re-analysis of the deposited data

How the results depend on the processing

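The counts of calls depended on the filter, the prior and single arrays, while medians of the 40 genes kept their direction in the larger contrasts. The medians lay between 0.62 and 1.10 for the line difference at 0 hr and between -0.35 and -0.76 for dexamethasone medium over all settings tried.

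In the 5 si-Setdb1 pairs, the calls among the 40 genes (1) and among all genes (138) became 2 and 367 with a pseudocount 10 times as large, 0 and 0 without a filter, 3 and 840 with the stricter filter, 0 and 2 with the mean of the probe sets, 3 and 871 with a trended prior, and 0 and 0 without any one pair. Ccnd3 turned to -0.0071 with the mean of its probe sets, of which 2 are dim. Subtracting array medians gave 52 higher and 145 lower calls over all genes, against 56 and 82. For si-Setdb1 in 3T3-L1 at 0 hr, calls over all genes (2) became 1 with the deposited scaling, 41 with medians subtracted (35 higher, 6 lower), 0 without a filter, 1 with the mean of probe sets, 4 with a trend, and 0 to 2 leaving out arrays, and the median of the 40 lay between -0.11 and 0.25 leaving out arrays.

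For dexamethasone medium, calls over all genes (95) became 254 with the larger pseudocount, 0 without a filter, 459 with the stricter one, 19 with the mean of probe sets, 577 with a trend and 1 to 13 without single pairs, and 2 of the 40 genes passed with the stricter filter and 2 with a trend. In its interaction with line, 9 of the 40 and 69 of all genes passed with the stricter filter, and 8 and 70 with a trend. The siRNA by line interaction gave 14 and 19 calls over all genes in those settings, and the median of the siRNA by dexamethasone interaction lay between 0.068 and 0.47 leaving out pairs.

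For the line difference, calls among the 40 (20) and all genes (2193) became 7 and 873 with ExA alone, 8 and 844 without a filter, and 1 to 18 and 448 to 1667 leaving out arrays. More of the 40 were called with the larger pseudocount (25, among 2695 of all genes) and with a trended prior (26, among 2905). The stricter filter gave 23 of 34, among 1970 of all genes. The median of 0.86 became 0.62 with ExA alone, 1.10 with array medians subtracted, when that of all genes moved to 0.28, and 0.68 with the mean of probe sets. For Mbd1 siRNA, 44 and 110 genes passed with the stricter filter and a trend. For Mcaf1 siRNA, 3 passed with the larger pseudocount, 239 with the stricter filter and 357 with a trend, 1 of them among the 40.

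Without the replicate block of pairs, calls were 1 of the 40 and 101 of all genes for si-Setdb1 and 0 and 88 for dexamethasone medium. With the experiment as replicate block, si-Setdb1 in 3T3-L1 at 0 hr gave 1 call over all genes. The block changed no call among the 40. Most contrasts rest on 1 array per group, so these pairs carry the spread. The cause of these changes was not tested.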
